A study of Mus musculus with 4 samples.

Results

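The 8 genes described here encode the RNA-binding proteins best known for setting the splicing programme of neurons, and were chosen by name: Ptbp1, Ptbp2, Nova1, Nova2, Rbfox1, Rbfox2, Rbfox3 and Srrm4. They are 8 of the 23038 genes quantified by mRNA-seq, and 40 of the 38240 alternative splicing events quantified in the same libraries lie in them. Cortex of mouse embryos at stage E14.5 was compared between 2 controls, which the labels call wild type and the study calls Qk fl/fl littermates without Cre, and 2 Qk cKO cortices, which the labels call Qk knock-out and which carry Nestin-cre and Qk fl/fl. Both groups therefore hold the floxed allele according to the study, and Cre was driven by the Nestin promoter, which is active in neural progenitors, so that cells of other origin in the dissected tissue keep Qk. Each library held between 37942046 and 42994832 sequence tags assigned to genes. The edgeR p-values and intervals rest on the spread between samples, with 2 per group. For each gene this spread is estimated partly from the other genes. Fisher's exact test on summed tags covers counting error only.

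Neurons use many exons that progenitors skip, and a small set of proteins sets this difference. Ptbp1, made by progenitors and non-neural cells, represses neuronal exons, and among its best known targets is a 34-nt exon of its own paralog Ptbp2, without which the Ptbp2 transcript is degraded. As neurons form, Ptbp2 takes over from Ptbp1, the Nova proteins bind clusters of YCAY in neuronal transcripts, the Rbfox proteins bind TGCATG beside alternative exons, and Srrm4 promotes the inclusion of very short exons called microexons. The product of Qk, Qki, is another RNA-binding splicing factor, found in neural progenitors and glia, that binds ACTAAC. Both motifs are written here with T in place of the U of RNA. The comparison below asks whether the transcripts of these other regulators, their levels or their own splicing, differed when Qk was deleted.

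Several of the regulators splice their own transcripts or those of their paralogs through exons that share much of their sequence. The first such exon is 34 nt long, shifts the reading frame when skipped and is exon 9 of Ptbp1 (chr10:79862014-79862047, + strand) and exon 10 of Ptbp2 (chr3:119724612-119724645, − strand) in the GENCODE M21 transcripts Ptbp1-202 and Ptbp2-201 on mm10. The capitals mark the positions at which the paralogs differ, and 26 of the 34 positions (76.5%) are the same.
Ptbp1 34-nt exon: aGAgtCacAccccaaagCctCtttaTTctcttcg
Ptbp2 34-nt exon: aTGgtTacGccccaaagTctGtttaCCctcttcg
The second is a 93-nt coding exon that keeps the reading frame and lies in the RNA-binding domain of the Rbfox proteins. It was placed at chr16:7292185-7292277 (+ strand) in Rbfox1, at chr15:77105577-77105669 (− strand) in Rbfox2 and at chr11:118502842-118502934 (− strand) in Rbfox3. The capitals mark positions that are not the same in all 3 paralogs. Rbfox1 and Rbfox2 share 86 of the 93 positions (92.5%), while Rbfox3 shares 69 (74.2%) with each of them.
Rbfox1 93-nt exon: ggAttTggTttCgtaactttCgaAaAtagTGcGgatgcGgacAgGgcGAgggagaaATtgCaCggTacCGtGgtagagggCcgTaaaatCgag
Rbfox2 93-nt exon: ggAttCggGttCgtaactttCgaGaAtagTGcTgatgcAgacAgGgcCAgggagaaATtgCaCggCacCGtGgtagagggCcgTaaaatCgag
Rbfox3 93-nt exon: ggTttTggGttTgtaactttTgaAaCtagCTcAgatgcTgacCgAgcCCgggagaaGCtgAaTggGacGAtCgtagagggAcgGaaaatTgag
Another 3 exons, which were not compared with a paralog, are shown because their inclusion was intermediate, low or high in these cortices. They are the in-frame 78-nt exon of Ptbp1 (chr10:79860117-79860194, + strand), the 40-nt exon of Rbfox2 (chr15:77094451-77094490, − strand) and the 16-nt microexon of Srrm4 (chr5:116454673-116454688, − strand), and the latter 2 shift the frame.
Ptbp1 78-nt exon: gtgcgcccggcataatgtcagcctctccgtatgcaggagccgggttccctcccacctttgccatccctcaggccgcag
Rbfox2 40-nt exon: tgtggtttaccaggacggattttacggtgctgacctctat
Srrm4 16-nt exon: gaggagtccttgcttg

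The labels were first checked on the targeted gene. Cre removes Qk exon 2, and the junction that joins it to exon 3 held 635 and 565 tags in the controls against 63 and 68 in the Qk cKO cortices. The neighbouring junction from exon 3 to exon 4 held 574 and 439 tags in the controls and 898 and 830.3 in Qk cKO. The exon 2 junction was thus 111 and 129 per 100 tags of its neighbour in the controls and 7.02 and 8.19 in Qk cKO (two-sided Fisher's exact test over summed tags, p = 4.80e-251), in the direction the labels give. Qk RNA as a whole was not lower but higher in Qk cKO. It was at 21.1 and 21.7 RPKM in the controls and 32.5 and 34.2 in Qk cKO (log2 fold change 0.65, edgeR FDR = 2.50e-05, called). The cause of this rise was not tested.

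None of the 8 regulators passed the test for a changed level (edgeR quasi-likelihood test, p below 0.01 and false discovery rate, FDR, below 0.1), and over all genes 0.584% (110 of 18834) did. At an unadjusted p below 0.05 there was 1 of the 8, Nova1, where 8.76% of all genes had such a p. The log2 fold changes of the 8 (Qk cKO over control) ran from −0.24 to 0.11 with a median of 0.01, and the median over all genes was 0.00. RPKM, tags divided by the exon length and by the total of tags assigned to genes, summed over the 8 genes was 302 and 299 in the controls and 299 and 307 in Qk cKO. In bulk tissue, fewer cells that express a gene and less RNA of that gene per cell cannot be told apart.

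Ordered by RPKM, the regulators fell into a high and a low set. RPKM depends on the exon length used, and the order was not examined with other lengths. That length was 5821 nt for Rbfox1, 4939 nt for Ptbp2 and 3108 nt for Ptbp1. Their longest coding transcripts in GENCODE M21 have 3061, 3777 and 3169 nt in the same order. Ptbp2 (lowest 72.4, highest 82.4 RPKM over the 4 cortices), Ptbp1 (71.1 to 77.3) and Rbfox2 (71.6 to 77.0) formed the high set, and their ranges overlapped. Srrm4 followed at 19.5 to 21.3 RPKM, clear of the next. Rbfox3 (15 to 17.2), Nova2 (14.8 to 17.9) and Rbfox1 (13.1 to 15.4) overlapped with each other, and Nova1 was lowest at 6.66 to 8.91 RPKM. The regulator made by progenitors and its neuronal paralog were thus at about the same RPKM in this tissue, which holds both kinds of cell.

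**Figure D1:**
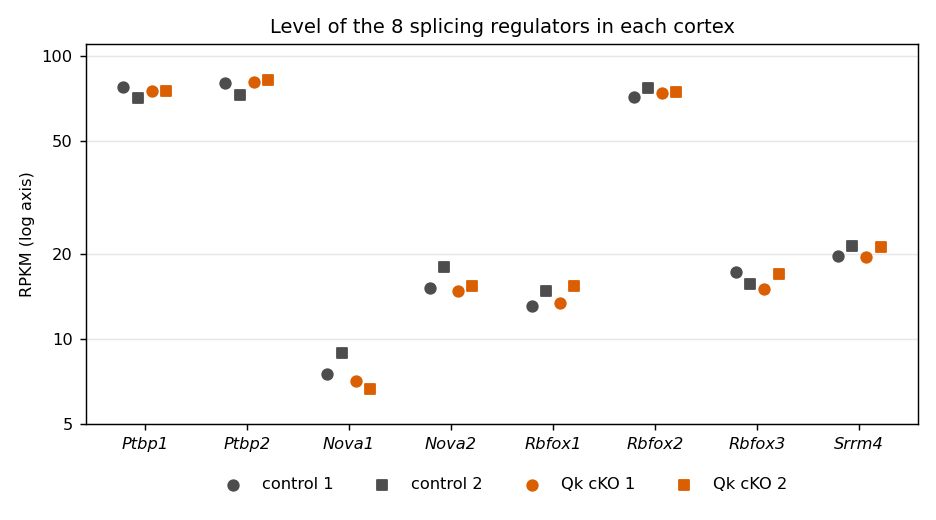
RPKM (log axis) of each of the 8 regulators in each cortex, with control cortices in grey and Qk cKO cortices in orange, replicate 1 as circles and replicate 2 as squares. Ptbp1, Ptbp2 and Rbfox2 sit between 71.1 and 82.4 and the other 5 genes between 6.66 and 21.3, and the groups overlap in 6 of the 8 genes.

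Ptbp1 (gene ID 19205, chr10:79854427-79864771), the progenitor repressor of neuronal exons, was at 77.3 and 71.1 RPKM in the controls and 74.8 and 74.9 in Qk cKO. Both Qk cKO values lay between the 2 controls. The log2 fold change was 0.02 (SE 0.063, 95% interval −0.11 to 0.15, edgeR FDR = 0.947), which bounds the fold between 0.93 and 1.11.
Ptbp2 (gene ID 56195, chr3:119718742-119784466), its neuronal paralog, was at 80.3 and 72.4 RPKM in the controls and 80.6 and 82.4 in Qk cKO. The groups did not overlap, but control 1 and Qk cKO 1 were nearly equal. The log2 fold change was 0.11 (SE 0.077, 95% interval −0.05 to 0.27, edgeR FDR = 0.779). The ratio of Ptbp1 to Ptbp2 RPKM, a measure added after the levels were seen, was 0.963 and 0.982 in the controls and 0.928 and 0.908 in Qk cKO. The groups of this ratio did not overlap, and the exact permutation test gave p = 0.333 (two-sided), the smallest value that 2 against 2 samples allow.

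Nova1 and Nova2, which in the brain regulate exons of synaptic and axonal genes, had the lowest fold changes of the 8. Nova1 (gene ID 664883, chr12:46694517-46818929) was at 7.53 and 8.91 RPKM in the controls and 7.14 and 6.66 in Qk cKO. Both Qk cKO values lay below both controls, and control 2 was the highest of the 4. The log2 fold change was −0.24 (SE 0.088, 95% interval −0.42 to −0.06, edgeR FDR = 0.373), and this value did not pass the threshold over all genes. Nova2 (gene ID 384569, chr7:18925888-18965319) was at 15.2 and 17.9 RPKM in the controls and 14.8 and 15.4 in Qk cKO. Here too control 2 stood above the other 3 cortices, which lay close together. The log2 fold change was −0.12 (SE 0.064, 95% interval −0.25 to 0.02, edgeR FDR = 0.661). Without control 2 the log2 fold change was −0.12 for Nova1 and 0.0033 for Nova2. Nova1 and Ptbp2 were the 2 of 8 regulators whose RPKM did not overlap between groups, and over all genes 36.9% did not overlap.

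Control 2 also carried the most RNA of the hypothalamic markers, genes of a neighbouring region of the forebrain. Their summed RPKM was 8.53 in control 1, 13.0 in control 2, 6.47 in Qk cKO 1 and 6.78 in Qk cKO 2, and 4 of the 5 (Six6, Nr5a1, Pomc and Sox14) were called lower in Qk cKO. Pomc, which marks arcuate neurons, was at 1.20 and 3.32 RPKM in the controls and 0.439 and 0.435 in Qk cKO. Six6, Nr5a1 and Sox14 held between 1 and 6 tags in each Qk cKO cortex and between 9 and 135 in each control. Nkx2-1, the most abundant of the list, was at 6.79, 7.26, 5.94 and 6.31 RPKM in the same order and was not called (edgeR FDR = 0.716). It made up most of the sum in every cortex, so the sum understates how far the other genes differed. The part of this tissue in the Nova1 and Nova2 values was not tested. The labelled tissue itself had its defining markers: the progenitor gene Pax6 was at 36.8 to 39.0 RPKM and the neuronal gene Neurod6 at 138 to 167 RPKM.

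The markers of the cells that make the regulators were measured beside them. Of the 8 progenitor markers, 2 were called lower in Qk cKO and none higher, and the list summed to 1633 and 1512 RPKM in the controls and 1329 and 1267 in Qk cKO. Those 2 were Fabp7, a fatty acid binding protein of radial glia (log2 fold change −0.45, edgeR FDR = 0.0153), and Slc1a3, a glutamate transporter (−0.23, FDR = 0.0887). Fabp7 alone, at 989 and 901 RPKM in the controls and 703 and 667 in Qk cKO, made up most of the sum and of its difference. The groups did not overlap in 5 of the 8 markers, beside 36.9% of all genes. Of the others, Sox2 and Hes5 were lower in Qk cKO and Pax6 was higher, none of them called. Nes, Vim and Hes1 overlapped between groups. None of the 8 neuron markers was called, and they summed to 1560.5 and 1629.6 RPKM in the controls and 1563 and 1476 in Qk cKO. No gene was called among the 4 intermediate progenitor, 6 interneuron and subpallial, 4 endothelial, 4 microglia, 4 meningeal and 3 erythroid markers found. In all, 6 of 46 markers were called, beside 0.584% of all genes. The marker lists were chosen with earlier results of these data known. The study had already reported Fabp7, Six6, Nr5a1, Pomc and Sox14 as changed in level. This share therefore describes the lists and cannot show that markers were called more often than other genes. The summed meningeal markers were highest in Qk cKO 2, at 90.1 RPKM against 71.3, 66.6 and 60.8 in control 1, control 2 and Qk cKO 1.

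Rbfox1 (gene ID 268859, chr16:5885355-7411526), found in neurons, was at 13.1 and 14.8 RPKM in the controls and 13.4 and 15.4 in Qk cKO. The 2 groups were interleaved, and the log2 fold change was 0.06 (SE 0.074, 95% interval −0.09 to 0.21, edgeR FDR = 0.893).
Rbfox2 (gene ID 93686, chr15:77078990-77307004), which progenitors and many tissues also express, was at 71.6 and 77.0 RPKM in the controls and 73.9 and 74.3 in Qk cKO. Its Qk cKO values lay between the controls (log2 fold change 0.01, SE 0.076, 95% interval −0.15 to 0.17, edgeR FDR = 0.990).
Rbfox3 (gene ID 52897, chr11:118489762-118911597), whose protein is the neuronal marker NeuN, was at 17.2 and 15.6 RPKM in the controls and 15 and 17 in Qk cKO. Again the groups overlapped (log2 fold change −0.02, SE 0.075, 95% interval −0.18 to 0.14, edgeR FDR = 0.963).
Srrm4 (gene ID 68955, chr5:116439275-116591817), the microexon activator, was at 19.7 and 21.3 RPKM in the controls and 19.5 and 21.2 in Qk cKO. The spread within each group exceeded the difference between them (log2 fold change 0.00, SE 0.056, 95% interval −0.11 to 0.12, edgeR FDR = 0.996). For these 4 genes and Ptbp1 the intervals reached no further than a fold of 0.89 on the lower and 1.16 on the higher side.

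The paralogs of the 8 regulators, their cofactors and the splicing proteins that bind them were taken as a list of 17 genes. None of the 17 was called higher or lower (0.584% of all genes were), and 1 had an unadjusted p below 0.05 (8.76% of all genes). Srrm3, the paralog of Srrm4 that also acts on microexons, was at 6.15 and 6.27 RPKM in the controls and 5.20 and 5.14 in Qk cKO (log2 fold change −0.25, edgeR FDR = 0.476). Ptbp3, listed in the files under its older name Rod1, was at 4.95 and 5.10 RPKM in the controls and 5.44 and 6.09 in Qk cKO (log2 fold change 0.21, edgeR FDR = 0.591). Hnrnph1, an RNA-binding protein that binds runs of G, was at 375 and 369 RPKM in the controls and 403 and 412 in Qk cKO (log2 fold change 0.15, edgeR FDR = 0.636). These 3 were among the 7 of 17 whose groups did not overlap, beside 36.9% of all genes, and none passed the threshold. Rest, the repressor of neuronal genes whose transcript Srrm4 splices, was at 3.13 and 3.39 RPKM in the controls and 3.22 and 3.33 in Qk cKO (edgeR FDR = 0.979). Over the 17 genes the median log2 fold change was 0.03, with a lowest value of −0.25 and a highest of 0.21.

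**Figure D2:**
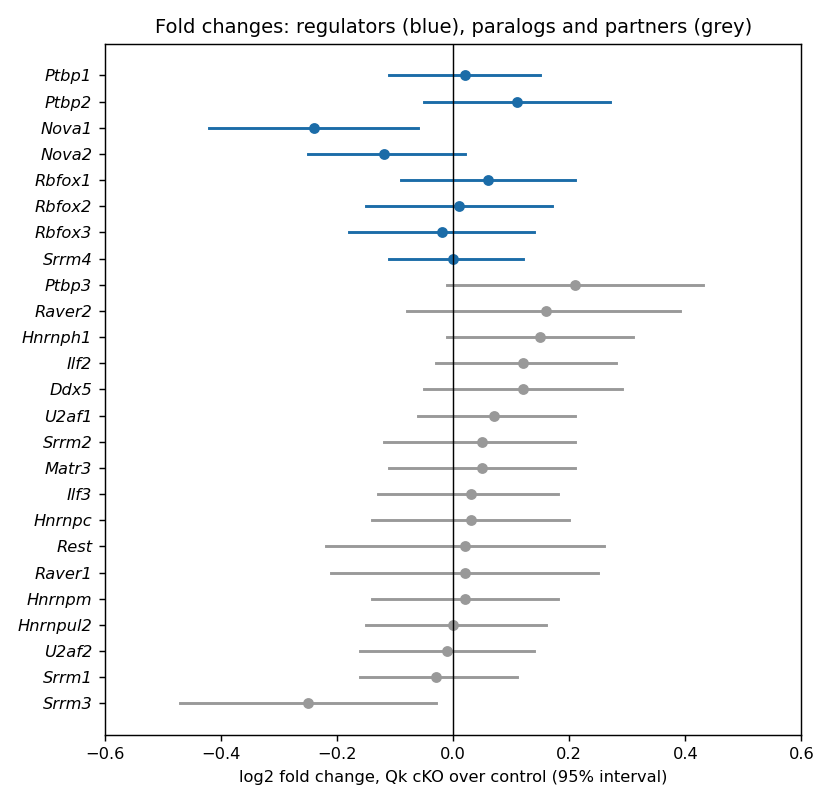
log2 fold change of each gene (Qk cKO over control, points) with its 95% interval (lines), for the 8 regulators in blue and their 17 paralogs and partners in grey. All points lie between −0.25 and 0.21, and the intervals of Nova1 and Srrm3 are the ones that do not cross 0.

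The second question was whether the regulators' own transcripts were spliced differently. Inclusion is the share of junction tags, per junction, that include an exon or use the isoform named first, and ΔI is inclusion in control minus Qk cKO. Of the 40 events in the 8 genes, 19 were cassette exons, 10 were alternative 3′ splice sites, 6 were tandem cassette exons, 3 were retained introns and 2 were mutually exclusive exons. Nova1 and Nova2 had no event in the files, so the 72-nt exon of Nova1, which Nova1 itself controls, was not analysed here. A coverage of at least 20 tags was reached by 18 events in 6 genes: 5 in Rbfox3, 4 each in Rbfox2 and Ptbp2, 3 in Ptbp1 and 1 each in Rbfox1 and Srrm4. Because 2 pairs had identical tags, they stand for 16 distinct measurements.

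None of the 18 events was called by Fisher's exact test on summed isoform tags (p below 0.01, FDR below 0.1), and over all events 7.50% (862 of 11500) were. Their FDR ran from 0.220 to 0.919. At an unadjusted p below 0.05 there were 3 of the 18, and over all events 16.8% had such a p. The inclusion of the groups did not overlap in 8 of the 18 events, or 7 of the 16 distinct ones, where 37.9% of all events did not overlap. The edgeR test of the isoform by genotype interaction, which holds the variation between samples, called none of the 18 (lowest FDR = 0.655) and 0.557% of all events. The median absolute ΔI was 0.0213 in the regulators and 0.0256 over all tested events. The median coverage was 89.9 tags in the regulators and 65.8 over all tested events, so the regulators' events were not shallower than most.

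**Figure D3:**
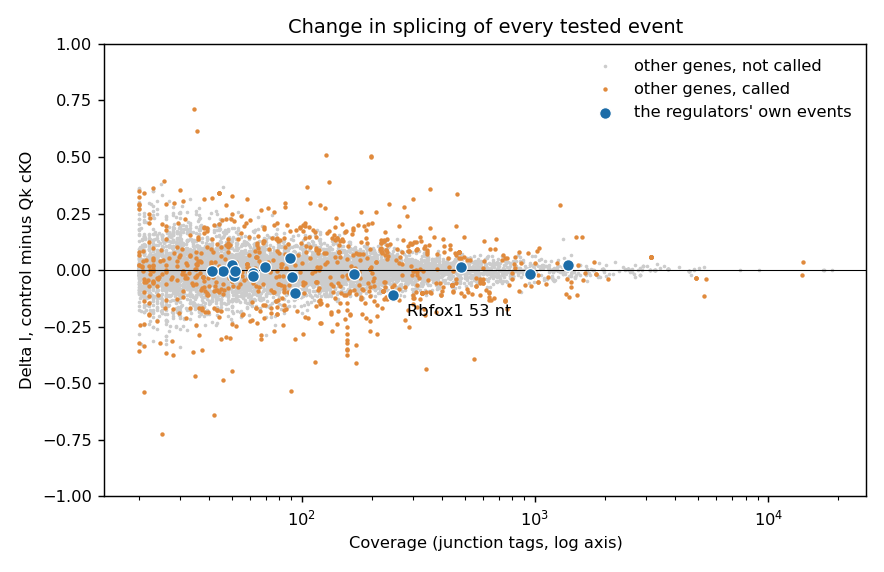
ΔI (control minus Qk cKO) of each tested event against its coverage in junction tags (log axis), with events of other genes in grey where not called and in orange where called, and the 18 events of the regulators in blue. The blue points lie between −0.108 and 0.0533, and the lowest is the 53-nt exon of Rbfox1.

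The 53-nt cassette exon of Rbfox1 was the one event of the 8 genes with an absolute ΔI of at least 0.1, which 11.4% of all tested events reached. It lies at chr16:7391988-7392040 near the 3′ end of the gene, its length shifts the reading frame, and it is not annotated in GENCODE M21, while 6 annotated transcripts join the exons on either side of it. Its inclusion was 0.308 (95% Wilson interval 0.225 to 0.405) in control 1 and 0.265 (0.186 to 0.363) in control 2. It was 0.417 (0.330 to 0.510) in Qk cKO 1 and 0.371 (0.282 to 0.469) in Qk cKO 2. Both Qk cKO values lay above both controls, while the intervals, which cover counting error only, overlapped. The inclusion junctions held 60.3 and 49 tags in the controls and 93 and 73 in Qk cKO, and the skipping junction held 67.8 and 68 in the controls and 65 and 62 in Qk cKO. The groups thus differed in the inclusion tags and much less in the skipping tags. ΔI was −0.108 (95% Newcombe interval −0.198 to −0.0152, counting error only).

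The call on this exon turned on which tags were tested. Fisher's exact test on isoform tags, which count each tag of the exon once, gave p = 0.0384 and FDR = 0.238. On the tags of the junctions alone the exact test gave p = 0.00559 and FDR = 0.0632, and the exon passed the threshold, as did 7.78% of all events tested in that way. The junction tags sum both inclusion junctions, so a tag that crosses both is counted at each, which makes this p too small. In control 1 there were 60.3 inclusion junction tags against 38.2 isoform tags. The test that holds the variation between samples gave FDR = 0.655 (edgeR interaction), with a log2 odds ratio of 0.61 (95% interval −0.14 to 1.36, Qk cKO over control). Without any single cortex ΔI stayed between −0.130 and −0.0837.

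The remaining exons of Ptbp1 and Ptbp2 differed little. The 78-nt exon of Ptbp1, which lies between RNA-binding domains and whose inclusion changes how strongly Ptbp1 represses its targets, was included at 0.380 and 0.402 in the controls and at 0.379 and 0.430 in Qk cKO. The groups overlapped (ΔI −0.0156, 95% interval −0.0637 to 0.0327, p = 0.546 by Fisher's exact test) at a coverage of 955 tags. The 34-nt exon of Ptbp2 was included at 0.975 and 0.966 in the controls and at 0.963 and 0.953 in Qk cKO. Its skipping junction, which marks the transcript that is degraded, held 12 and 13 tags in the controls and 20.1 and 24.1 in Qk cKO against 750 to 1048 inclusion tags. Both Qk cKO values lay below both controls, by less than the counting error (ΔI 0.0134, 95% interval −0.00353 to 0.0301, p = 0.141 by Fisher's exact test, FDR = 0.472). The 34-nt exon of Ptbp1, whose skipping the Ptb proteins themselves promote, was included at 0.994 and 0.983 in the controls and at 0.989 and 0.997 in Qk cKO. Its skipping junction held at most 3.70 tags in any cortex, too few to reach the coverage limit.

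A pair of further Ptbp events had an unadjusted p below 0.05 and small differences. Of the retained-intron events of Ptbp1 at chr10:79858752-79859270, the tested one had a coverage of 41 tags. Its inclusion was 0.00787 and 0.00299 in the controls and 0.0139 and 0.00954 in Qk cKO. Retention of this intron was thus rare in all 4 cortices (ΔI −0.00623, p = 0.0272 by Fisher's exact test, FDR = 0.220). The other event at this place had a coverage of 14.6 tags and was not tested, with an inclusion of 0.975 to 0.995. This value is not a measure of retention. Alternative 3′ splice sites lie 120 nt apart here, and the spliced junction of this event is that of the farther, rarely used site. The junction of the nearer site, which is the spliced one of the tested event, held 501 to 639 tags per cortex. Transcripts spliced to the nearer site contain the stretch before the farther one. Alternative 3′ splice sites of Ptbp2 that lie 15 nt apart, within chr3:119726066-119740509, had the longer form at 0.0887 and 0.106 in the controls and 0.114 and 0.118 in Qk cKO (ΔI −0.0189, p = 0.0375 by Fisher's exact test, FDR = 0.254). The Ptbp2 3′ splice sites that lie 3 nt apart at the last exon, the most deeply covered event of the 8 genes with 1379 tags, were used almost evenly: inclusion was 0.546 and 0.516 in the controls and 0.493 and 0.531 in Qk cKO (p = 0.200 by Fisher's exact test).

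The 93-nt exon, skipping of which removes part of the RNA-binding domain, was included in nearly all transcripts of the 3 Rbfox genes. In Rbfox1 its inclusion was complete in 3 cortices and 0.989 in Qk cKO 2. In Rbfox2 it was 1 and 0.982 in the controls and 0.985 and 0.979 in Qk cKO. In Rbfox3 it was 0.974 and 0.992 in the controls and 0.977 and 0.950 in Qk cKO. The skipping junctions held at most 7.74 tags in any cortex, and none of the 3 exons reached a coverage of 20. With the limit lowered to 10 tags, the exon was not called in Rbfox2 (ΔI 0.00964, 95% interval −0.00302 to 0.0226, FDR = 0.436) or Rbfox3 (ΔI 0.0192, 95% interval −0.0116 to 0.0519, FDR = 0.655), and in Rbfox1 it stayed below that limit.

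Rbfox2 carries a neuronal 40-nt exon and, next to it, a 43-nt exon known from muscle. A few tags joined both exons (1 to 3.01 per cortex), and the junction that skips both held 12 to 22. The 40-nt exon was included at 0.962 and 0.934 in the controls and at 0.957 and 0.961 in Qk cKO (ΔI −0.0112, 95% interval −0.0346 to 0.0116, p = 0.438 by Fisher's exact test), and the groups overlapped. For the 43-nt exon at chr15:77091812-77091854, the measures went apart. Tags assigned to the isoform that includes it, exon body counted, were 21 and 23 in the controls and 42 and 35 in Qk cKO, while its junctions to the exons that flank this pair held 4.02 and 4 tags in the controls and 4.03 and 1.02 in Qk cKO. In the event that starts from the 40-nt exon, its junctions held 6.02 and 5 tags in the controls and 1.01 and 3.03 in Qk cKO. The isoform tags were therefore more numerous in both Qk cKO cortices than in both controls, and the junction tags of neither event were. These events had a coverage of 13.1 and 15.1 tags and were not tested. With the limit lowered to 10 tags, the first had p = 0.0186 by Fisher's exact test on isoform tags (FDR = 0.176) and p = 0.764 on junction tags. The second had p = 0.00924 on isoform tags and p = 0.0721 on junction tags (exact test). Its FDR of 0.119 was the smallest of the regulators' events on isoform tags at that limit. The event that takes the 40-nt and 43-nt exons as mutually exclusive also had a coverage of 13.1 tags. It had p = 0.00827 on isoform tags (FDR = 0.194) and p = 0.412 on junction tags (exact test). An in-frame 51-nt exon near the 5′ end of Rbfox2 was included at 0.825 and 0.795 in the controls and at 0.854 and 0.827 in Qk cKO (p = 0.578 by Fisher's exact test).

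Rbfox3 had the event closest to the 0.1 limit. Its last exon has 3′ splice sites 1397 nt apart, within chr11:118491203-118494227, and the 2 events annotated there had identical tags. Use of the nearer site was 0.194 and 0.205 in the controls and 0.313 and 0.289 in Qk cKO, without overlap (ΔI −0.0997, 95% interval −0.185 to −0.0103). The junction of the nearer site held 18 and 15 tags in the controls and 25 and 35 in Qk cKO. The event was not called on isoform tags, of which most lie in the exon body (p = 0.678, Fisher's exact test), nor on junction tags (p = 0.0305, FDR = 0.252). The 40-nt exon of Rbfox3, which is not coding, was included at 0.884 and 0.951 in the controls and at 0.864 and 0.911 in Qk cKO (p = 0.462 by Fisher's exact test).

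The 16-nt microexon of Srrm4 was mostly skipped, at an inclusion of 0.140 and 0.113 in the controls and 0.111 and 0.143 in Qk cKO. The groups overlapped (ΔI −0.00446, 95% interval −0.108 to 0.0923, p = 0.156 by Fisher's exact test), and with 8 to 13 inclusion tags per cortex a difference of up to about 0.1 was not detectable at this depth.

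**Figure D4:**
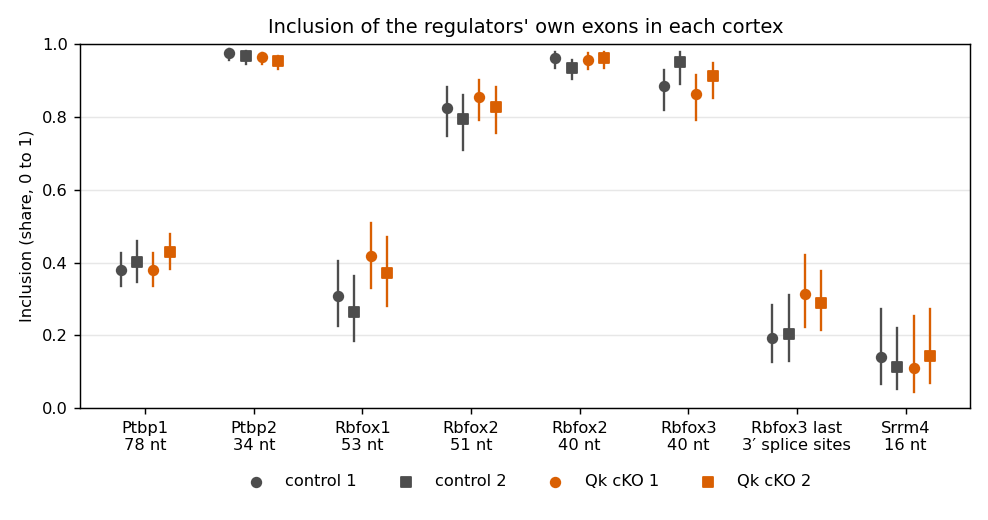
Inclusion (share, 0 to 1) of the regulators' own exons in each cortex, points with 95% Wilson intervals for counting error, control in grey and Qk cKO in orange, replicate 1 as circles and replicate 2 as squares. The 53-nt exon of Rbfox1 (0.265 to 0.308 in controls, 0.371 to 0.417 in Qk cKO) and the last 3′ splice sites of Rbfox3 (0.194 to 0.205 and 0.289 to 0.313) are the 2 with the widest gap between groups.

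The other 22 events, 9 of them in Rbfox2 and 8 in Ptbp1, stayed below 20 tags. In most of them 1 isoform made up nearly all tags in every cortex, as in the 31-nt exon 2 of Ptbp1, which was included at 0.996, 0.998, 0.986 and 0.992 in control 1, control 2, Qk cKO 1 and Qk cKO 2. Both Qk cKO values of this exon lay below both controls, and with the limit lowered to 10 tags its FDR was 0.212.

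Genes with exons that the regulators are known to control were examined as 4 lists, with all tested events of each gene, so that an event counted here need not be the exon its regulator acts on. Among the 40 tested events of the Ptbp targets 5 (12.5%) were called, among the 46 of the Nova targets 11 (23.9%), among the 50 of the Rbfox targets 8 (16%) and among the 21 of the Srrm4 targets 1 (4.76%), beside 7.50% of all events. Over the 4 lists together 20 of 143 events (14%) in 12 genes were called, of which 9 were more included in the controls and 11 in Qk cKO. The lists were chosen with earlier results of these data known. They hold genes, among them Nin, Flna and Dab1, that the study had already reported as spliced differently in Qk cKO. The shares therefore describe the lists and cannot show that targets of the regulators were called more often than other genes. Several events overlap: 5 of the called ones lie in Epb41, which is on 2 lists, and 4 in Agrn, so that these 2 genes hold 9 of the 11 called on the Nova list. The test that holds the variation between samples called 3 of the 143, in Flna, Nin and Aplp2.
Flna, an actin crosslinker on the Ptbp list, had a 24-nt exon included at 0.526 and 0.498 in the controls and at 0.671 and 0.697 in Qk cKO (FDR = 6.28e-12 by Fisher's exact test, edgeR interaction FDR = 0.0723). The study states that its Qki-dependent Flna exon is not exon N, the Flna exon whose skipping it ties to PTBP1. Nin, a centrosomal protein on the Rbfox list, had a 2121-nt exon, not the one Rbfox proteins are known to act on, included at 0.302 and 0.282 in the controls and at 0.0909 and 0.117 in Qk cKO (FDR = 4.84e-16, edgeR interaction FDR = 0.0333). In both genes the groups did not overlap.
Aplp2, an amyloid precursor-like protein on the Nova list, had a 36-nt exon included at 0.386 and 0.426 in the controls and at 0.255 and 0.260 in Qk cKO (FDR = 2.03e-12 by Fisher's exact test, edgeR interaction FDR = 0.0761).
The event with the largest ΔI on the Nova list was a retained intron of Dab1, a reelin signalling adaptor, at 0.733 and 0.870 in the controls and 0.429 and 0.586 in Qk cKO (Fisher FDR = 0.0749, edgeR interaction FDR = 0.683). On the Srrm4 list the 24-nt microexon of Cpeb4, a translational regulator, was included at 0.976 and 0.971 in the controls and at 0.822 and 0.882 in Qk cKO (Fisher FDR = 0.0361, edgeR interaction FDR = 0.322). Dab1 and Cpeb4 passed the test on summed tags and not the one that holds the variation between samples.

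Events of the 17 paralogs and partners were called in 4 of 72 cases (5.56%), beside 7.50% of all events. The called events lay in 2 genes, with higher summed inclusion in Qk cKO. They were the retained intron of Ddx5, an RNA helicase, and 3 alternative 3′ splice-site events of Hnrnpc with shared tags. The Ddx5 intron was at 0.178 and 0.208 in the controls and 0.219 and 0.242 in Qk cKO (Fisher FDR = 6.23e-09, edgeR interaction FDR = 0.691). The Hnrnpc events had a ΔI of −0.0541 to −0.0230 and an edgeR interaction FDR of 0.707. Where ΔI was −0.0541, inclusion was 0.745 in both control 1 and Qk cKO 1, 0.667 in control 2 and 0.790 in Qk cKO 2.

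The letters ACTAAC were searched in the longest coding transcript of each regulator in GENCODE M21, on the transcript strand only. They occurred once each in Ptbp2, Nova2, Rbfox3 and Srrm4 and were not found in Ptbp1, Nova1, Rbfox1 and Rbfox2. The 4 of 8 compare with 27.3% of the transcripts of all 15495 genes searched and with 36.7% of the 6934 whose length lay in the range of the regulators' (3061 to 8372 nt). Introns were not searched, and a match is a description of the letters and not of binding.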

How the data were processed

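PolyA mRNA of E14.5 cortex from 2 control and 2 Qk cKO mice was sequenced as paired 150-nt reads, and the authors aligned the reads with OLego to mm10 and an exon junction database and quantified them with Quantas. The deposited gene tables hold estimated counts (tags) and RPKM, and the deposited event tables hold estimated counts of isoform, exon and junction tags. Tags were rounded here and tested with edgeR 4.0.16 (quasi-likelihood, TMM, genes with at least 1 tag, Benjamini-Hochberg over 18834 genes, 95% intervals) in R 4.3.3. Events with a coverage of at least 20 (the smallest row or column sum of junction tags by group) were tested with Fisher's exact test on summed isoform tags, with Benjamini-Hochberg adjustment within each event type (scipy 1.17.1). The call was p below 0.01 and FDR below 0.1 throughout. Fisher's exact test leaves out the variation between samples, which the edgeR interaction holds. The tests were checked on simulated data. Alternatives were upper-quartile scaling, the edgeR exact test, DESeq2 1.42.0, a filter on low counts, a replicate block, each sample left out, junction tags alone, coverage of 10 or 50, adjustment over all event types, and the edgeR isoform by genotype interaction.

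The members and gene lists were chosen with earlier results of these data known. Named were the 8 genes, their events called or with an absolute ΔI of at least 0.1, and a set of known exons. These were exons of Ptbp1 (78 nt), Ptbp2 (34 nt), Nova1 (72 nt), Rbfox1 (93 and 53 nt) and Rbfox2 (93, 40 and 43 nt). Exons of 40 and 43 nt in Rbfox1 and of 53 nt in Rbfox2 were also planned and matched no cassette event. The 3 partners with the smallest p and 1 called event per target list were named too. The other events named, Rest, Aplp2 and the called events of the partners were chosen after their values were seen. Of the symbols listed, Ptbp3, Epb41 and Map2 were matched by gene ID, and Hbb-bt was not matched. Exons were placed on GENCODE M21 (GRCm38, the same assembly as mm10) from the offsets in the event names, and sequences were read from its transcripts. No intron or protein sequence was used here.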

Additional observations from a re-analysis of the deposited data

How the results depend on the processing

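None of the 8 regulators and none of the 17 paralogs and partners was called under any of the 9 alternatives for gene levels. The smallest FDR of a regulator in these was 0.191, for Nova1 without Qk cKO 1. Leaving out each cortex in turn, log2 fold changes ran from −0.04 to 0.09 for Ptbp1, −0.23 to 0.0033 for Nova2, −0.03 to 0.15 for Rbfox1, −0.04 to 0.06 for Rbfox2, −0.10 to 0.06 for Rbfox3 and −0.05 to 0.06 for Srrm4, so that their direction turned. Upper-quartile scaling gave −0.0025 for Srrm4. Nova1 (−0.35 to −0.12) and Ptbp2 (0.03 to 0.19) kept their direction. The log2 fold change of Qk stayed between 0.62 and 0.67, with FDR = 0.341 without control 2. The 6 called markers became 1 with DESeq2, 1 with the filter on low counts, and 0 to 9 with a cortex left out. In these cases the cause was not tested.

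Tests on junction tags alone called 1 of the regulators' events, the 53-nt exon of Rbfox1, and the other alternatives called 0, also with 1 event per set of identical tags (added after the data were seen). The edgeR interaction called 3 target gene events in place of 20; the cause was not tested. Without 1 cortex, ΔI ran from −0.0416 to 0.00920 for the 78-nt exon of Ptbp1, −0.00985 to 0.00135 for its 34-nt exon, −0.0248 to 0.00306 for the 40-nt and −0.0134 to 0.0678 for the 43-nt exon of Rbfox2, and −0.0185 to 0.0133 for the 16-nt exon of Srrm4. The labels do not say what a replicate number marks, and the numbers were not taken as pairs. The deviations of same-numbered samples correlated at 0.534 over 12958 genes, −0.0657 over those on autosomes, so that the shared deviation lay in genes off the autosomes, and −0.0140 over events. With the replicate block 192 genes in place of 110 were called, and 903 events in place of 862, none of them in the regulators.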
